A study of Mus musculus with 84 samples.

Results

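Committed hematopoietic progenitor cells (HPC) of mice labelled MLL-ENL (x2) were compared with HPC of their own controls at 10 weeks of age. MLL-ENL joins human KMT2A to MLLT1, as a chromosomal translocation does in acute leukemia, and the study placed it in mice under tetracycline control to ask how readily it starts leukemia at different ages. The comparison comprised 7 of the 84 libraries of the series, chosen by their titles: 3 of MLL-ENL (x2) mice (numbers 5293, 5897 and 5900) and 4 of controls (4892, 4894, 5898 and 5899). All were sorted from bone marrow at 10 weeks, carried no doxycycline in their titles and had the note fetal induction. The controls thus shared age, tissue and these notes with the MLL-ENL (x2) mice, while shared handling was not tested. The genotype tag read MLL-ENL in the first group and wild type in the second. What x2 denotes, which promoter drives the transactivator and where the transgene sits could not be read from the labels. Each number is taken as 1 mouse, and each mouse also gave a library of pre-granulocyte-monocyte progenitors (pGM) and 1 of granulocyte-monocyte progenitors (GMP).

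KMT2A, also called MLL, is a histone methyltransferase that keeps developmental genes active, among them the HOXA homeobox genes. In the fusion its DNA-binding end, which holds a domain for unmethylated CG dinucleotides, is joined to ENL, a protein of the machinery that drives transcript elongation. HOXA9 and its partner MEIS1 are high in normal stem and early progenitor cells, fall as cells mature, and are the classical targets that MLL fusions hold up in leukemia. HPC stand early in this path, with pGM and then GMP following on the way to granulocytes and monocytes.

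The HPC libraries held 13165806 to 18764523 mouse counts. Levels are given as CPM, counts scaled to a common library total after TMM normalization, and changes as log2 fold changes with their standard error. Kit, Cd34, Cd48, Ly6a and Flt3, the progenitor markers, were expressed in all 7 libraries, with Cd34 at 1281 to 1827 CPM. Libraries differed within groups as well. In genes with a count, controls 4892 and 4894 and MLL-ENL (x2) 5293 had 17787, 17695 and 18324, the other libraries 16542 to 16982. Whether these libraries differ by batch was not tested. Control libraries 4892 and 4894 held 384 and 251 CPM of the neutrophil granule gene Ltf, against 12.6 and 2.89 CPM in the other controls and 4.86 to 5.82 CPM in MLL-ENL (x2). Kit and Flt3 were lowest in control 5898 (398 and 184 CPM) and MLL-ENL (x2) 5900 (350.2 and 232 CPM), 1 library of each group. Xist was above 79 CPM in 3 controls and in 5900, and the Y-linked Ddx3y above 78 CPM in 4892, 5293 and 5897, so both groups held both sexes.

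Transgene reads separated the groups. The 4 controls held 2, 3, 5 and 0 reads on the human lines (0.114, 0.228, 0.332 and 0 CPM of mouse counts). Libraries 5293, 5897 and 5900 held 146, 156 and 252 reads (7.78, 10.6 and 14.3 CPM). The means were 10.9 ± 3.29 CPM (SD, n = 3) and 0.168 ± 0.143 CPM (n = 4), and the groups did not overlap (2-sided exact permutation p = 0.057, the smallest this design allows). Of the 554 reads in MLL-ENL (x2) HPC, 543 lay on KMT2A and 11 on MLLT1. The mouse genes Kmt2a (log2 fold change 0.24 ± 0.26) and Mllt1 (0.15 ± 0.28) did not pass the test (edgeR quasi-likelihood test, adjusted p = 0.91 and 0.97).

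Of 14260 mouse genes tested, 81 were higher (0.568%) and 61 lower (0.428%) in MLL-ENL (x2) HPC at a false discovery rate of 0.05 by edgeR's quasi-likelihood test. The median log2 fold change of all genes was 0.01, with 7287 positive and 6938 negative values. Among the raised genes the median was 2.04, and 24 rose by at least 3. The lowered genes had a median of -1.51, and 12 fell by at least 3. In 78 of the 81 and 59 of the 61 the 2 groups did not overlap, as in 1249 (8.76%) of all 14260 genes; passing the test itself favours such separation. Of the 81 raised genes 28 had a control mean under 1 CPM. Of the 61 lowered genes 16 had a mean under 1 CPM in MLL-ENL (x2).

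**Figure D1:**
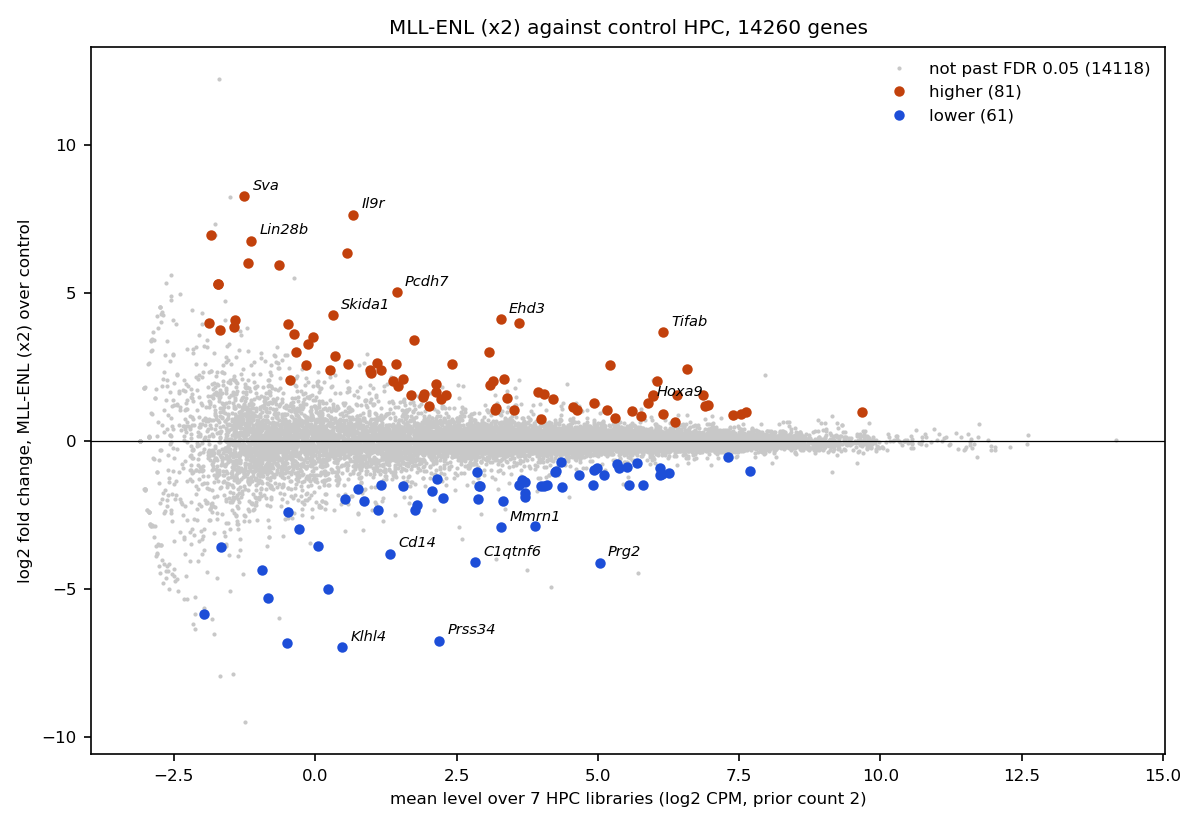
Mean level of each of 14260 genes over the 7 HPC libraries (x axis, log2 CPM) against its log2 fold change in MLL-ENL (x2) over control (y axis); coloured points passed FDR 0.05, 81 higher and 61 lower. Il9r, Sva and Lin28b lie high at low mean levels, Tifab stands apart among well expressed raised genes, and Klhl4, Prss34 and Prg2 lie lowest among those labelled.

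Several homeobox genes of the Hoxa cluster rose. Of 11 cluster genes 7 were expressed enough to be tested, and all 7 had a positive log2 fold change (median 1.29). The shared sign is little of a test. Hoxa4 had 3, 0, 0 and 2 counts in controls and could hardly be negative, and Hoxa2 ran from -0.74 to 1.01 under alternative settings. Of the 7, 4 passed: Hoxa5, Hoxa7, Hoxa9 and Hoxa10, on the minus strand of mouse chromosome 6. Hoxa6, which lies between Hoxa5 and Hoxa7, was too low to be tested. The bases before the start sites of these 4 genes are shown because they rose and lie in 1 cluster, with Tifab, the most significant gene outside the cluster, for contrast. Each line is the 250 bases upstream of the RefSeq start (build GRCm38.p6), on the gene's own strand, with every CG dinucleotide in capitals, the letters that the fusion's CG-binding domain reads when unmethylated.
Hoxa5: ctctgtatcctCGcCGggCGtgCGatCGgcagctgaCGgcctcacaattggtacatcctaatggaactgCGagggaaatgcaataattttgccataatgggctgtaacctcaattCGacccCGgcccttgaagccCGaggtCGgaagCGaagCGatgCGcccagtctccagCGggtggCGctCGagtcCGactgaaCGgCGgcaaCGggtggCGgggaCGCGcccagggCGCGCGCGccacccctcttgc
Hoxa7: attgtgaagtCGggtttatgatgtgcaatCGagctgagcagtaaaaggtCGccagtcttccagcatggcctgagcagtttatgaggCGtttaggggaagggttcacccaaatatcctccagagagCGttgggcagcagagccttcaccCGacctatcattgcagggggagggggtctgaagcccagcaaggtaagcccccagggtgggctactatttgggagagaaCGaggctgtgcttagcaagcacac
Hoxa9: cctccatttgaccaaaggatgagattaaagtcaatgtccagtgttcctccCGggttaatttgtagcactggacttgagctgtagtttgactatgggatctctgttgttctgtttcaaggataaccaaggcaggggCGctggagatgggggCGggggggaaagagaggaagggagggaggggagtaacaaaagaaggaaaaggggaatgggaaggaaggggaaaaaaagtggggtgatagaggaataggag
Hoxa10: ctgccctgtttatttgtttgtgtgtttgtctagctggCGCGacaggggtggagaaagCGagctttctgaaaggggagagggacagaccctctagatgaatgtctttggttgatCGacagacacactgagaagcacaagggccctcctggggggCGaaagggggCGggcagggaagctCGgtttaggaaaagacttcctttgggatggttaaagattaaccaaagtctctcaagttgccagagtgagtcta
Tifab: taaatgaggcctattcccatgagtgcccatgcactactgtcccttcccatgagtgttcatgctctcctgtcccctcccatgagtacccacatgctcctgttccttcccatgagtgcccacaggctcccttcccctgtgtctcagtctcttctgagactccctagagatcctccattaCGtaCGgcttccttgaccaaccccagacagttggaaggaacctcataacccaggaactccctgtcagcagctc
They lie at chr6:52204588-52204837, chr6:52218574-52218823, chr6:52227371-52227620, chr6:52240855-52241104 and chr13:56178886-56179135. Hoxa5 held 28 CG, a number reached by 7.61% of 32851 RefSeq windows of this length. Hoxa7 and Hoxa10 held 7 each (reached by 46.3%), Hoxa9 held 3 (71.0%) and Tifab 2 (81.2%), where the median window had 6. The raised genes thus differed widely in CG content just upstream of these starts, and Hoxa7 and Hoxa9 have longer gene models in GENCODE that begin 3281 and 3719 bases further out.

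Hoxa9, the cluster gene most tied to leukemic self-renewal, stood at 44.3, 42.2, 30.6 and 46.0 CPM in controls 4892, 4894, 5898 and 5899 and at 82.0, 117 and 100.3 CPM in 5293, 5897 and 5900. Every MLL-ENL (x2) library lay above every control, and the log2 fold change was 1.29 ± 0.18 (edgeR adjusted p = 0.00039). Hoxa7 had the tightest controls of the cluster, 53.04 to 56.3 CPM, against 90.1 to 115 CPM (0.89 ± 0.13, adjusted p = 0.00033). Hoxa10, the neighbour of Hoxa9 towards the posterior end, stood at 17.6 to 24.2 against 44.9 to 61.1 CPM (1.28 ± 0.22, 0.0027). Hoxa5, low in control HPC, went from 1.35 to 3.61 CPM up to 8.87 to 9.87 CPM (1.92 ± 0.33, 0.0032). Towards the anterior end expression was slight: Hoxa4 had 0 to 0.153 CPM in controls and 0.555 to 1.06 CPM in MLL-ENL (x2) (3.28 ± 0.89, adjusted p = 0.096), and Hoxa3 (1.67 ± 0.59) and Hoxa2 (0.45 ± 0.87) had an adjusted p of 0.29 and 0.97. Meis1, the partner of HOXA9, was already high in controls, at 516 to 619 CPM, and was at 613 to 686 CPM in MLL-ENL (x2), with 1 control inside that range (0.18 ± 0.22, adjusted p = 0.93). The cluster genes overlap antisense transcripts, and the strand setting of the counting is not given, so reads of both cannot be told apart.

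Beyond the cluster, a list of 24 tested MLL fusion targets had 6 higher and 0 lower, with a median of 0.36 and 21 of 24 values positive; the list was chosen with results of these data known, and it includes the 4 Hoxa genes above. Skida1, a target of unknown function that MLL fusions switch on, was at 0.356, 0.260, 0.201 and 0.321 CPM in controls and at 4.67, 5.63 and 6.37 CPM in MLL-ENL (x2). This was one of the cleanest switches, with 4.24 ± 0.44 on the log2 scale (adjusted p = 3.4e-05). Mecom, the zinc finger factor EVI1 of stem cells, stood at 30.2 to 47.9 CPM in controls and at 130.2, 122 and 101 CPM in the others (1.55 ± 0.23, 0.00043). Runx2 (0.47, adjusted p = 0.27), Bcl2 (0.47, 0.46), Mef2c (0.42, 0.59), Myb (0.37, 0.53), Cdk6 (-0.40, 0.68), Myc (0.04, 0.99) and Flt3 (0.06, 1) did not pass. The 18 genes of MLL complexes and elongation partners, with Dot1l (0.24) and Aff4 (0.33) closest, had 0 higher and 0 lower, and their log2 fold changes ran from -0.15 to 0.33. None of these 18 had an adjusted p under 0.77 by edgeR.

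**Figure D2:**
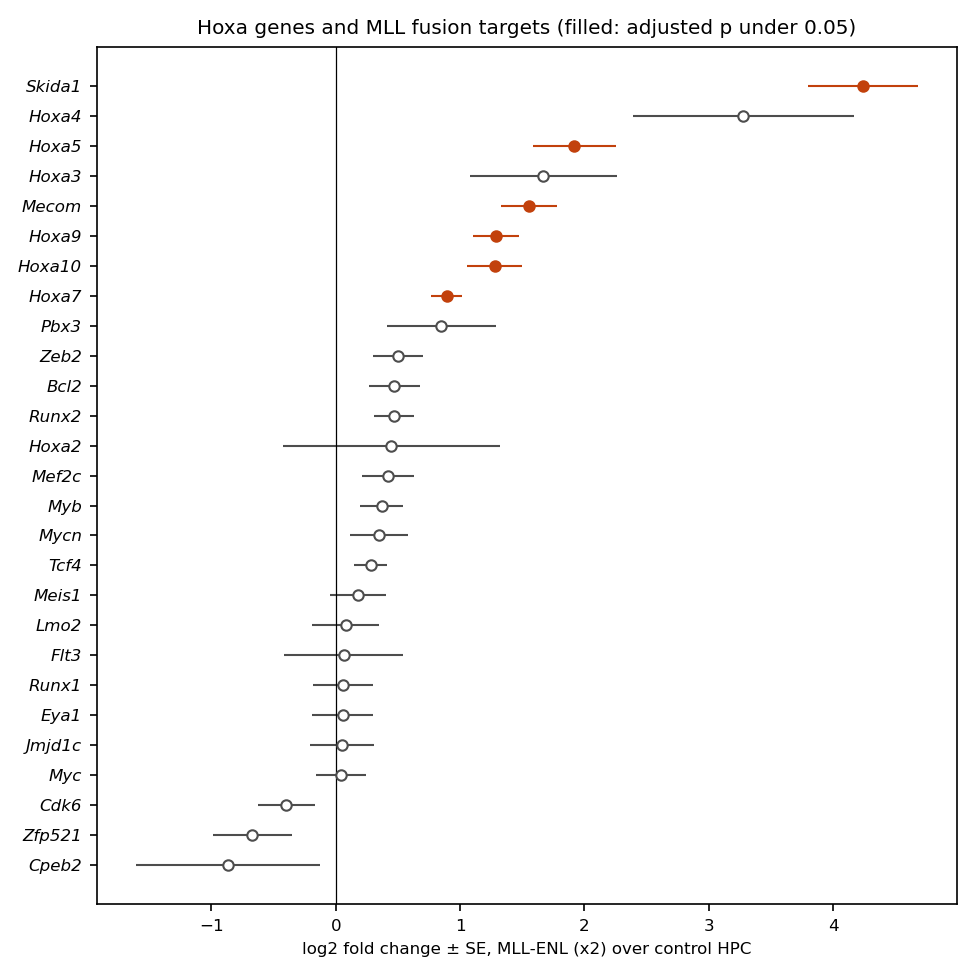
Log2 fold change with SE of the Hoxa genes and MLL fusion targets in MLL-ENL (x2) over control HPC (x axis), 1 row per gene; filled orange points passed an adjusted p of 0.05. Skida1, Hoxa5, Mecom, Hoxa9, Hoxa10 and Hoxa7 passed, Meis1 lies at 0.18 and Cdk6 at -0.40.

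Tifab, Il9r and 3 further genes of receptors or signalling were among the rises. Tifab, a relative of TIFA that restrains TRAF6 signalling, had the smallest p of all genes: 27.3, 21.03, 30.6 and 18.8 CPM in controls and 218, 383 and 334 CPM in MLL-ENL (x2) HPC. Its lowest raised library was far above its highest control (3.67 ± 0.23, adjusted p = 3.6e-09). The gene lies on the minus strand at chr13:56173704-56178885 (GRCm38, GENCODE vM21). Il9r, the receptor of interleukin 9, a growth factor of mast and T cells, had 0.254, 0.195, 0 and 0 CPM in controls and 26.7, 28.1 and 21.2 CPM in the others (7.64 ± 0.84, 3.7e-05). Il9r, at chr11:32187541-32200279 on the minus strand, was the only one of 25 listed cytokine and growth factor receptors to pass (median of the list 0.12). Il18r1 had 1.21 (adjusted p = 0.16). The list was not complete: outside it the cytokine receptor gene Il17rb rose (1.64 ± 0.22, 0.00021) and Il11ra1 fell (-1.14 ± 0.16, 0.00023). Among 15 genes of the inflammatory NF-kB response 1 rose, Tifab itself, and the inhibitor Nfkbia had 0.85 ± 0.25 (adjusted p = 0.14). Ednra, the endothelin A receptor, rose from 0.268 to 1.93 CPM up to 9.48 to 22.6 CPM (3.42 ± 0.59, 0.0028). Spry4, a feedback inhibitor of growth factor signalling, went from a mean of 0.951 to 5.96 CPM (2.62 ± 0.53, 0.012). Gem, a small GTPase of the RGK group, rose from 24.3 to 47.3 CPM up to 115 to 209 CPM (2.04 ± 0.33, 0.0015).

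The other genes with large rises had varied functions. Pcdh7, a protocadherin, was at 0.305, 0.584, 1.14 and 0.321 CPM in controls and at 17.0, 21.5 and 17.9 CPM in MLL-ENL (x2) (5.01 ± 0.51, adjusted p = 6.8e-06). Ehd3, which acts in endosome recycling, was at 2.14 to 3.70 against 39.4 to 59.2 CPM (4.12 ± 0.37, 1.3e-06). In both genes every MLL-ENL (x2) library lay far above every control. Chga, the granin of secretory vesicles, rose from 3.08 to 5.13 CPM up to 42.8, 107 and 35.9 CPM (3.99 ± 0.47, 4.6e-05), with library 5897 highest. Nsg2, a vesicle protein of neurons (3.005 ± 0.41, 0.00023), and the monocarboxylate transporter Slc16a11 (2.58 ± 0.37, 0.0004) rose as well. So did the actin binder Dbn1 (2.09 ± 0.41, 0.011), the kinase Nrk (2.58 ± 0.42, 0.0038), the ETS factor Etv1 (2.41 ± 0.57, 0.04) and the inactive rhomboid Rhbdf1 (2.58 ± 0.63, 0.049). The calls of Etv1 and Rhbdf1 were each lost under 7 of 12 alternative settings, those of Spry4 under 4 and of Dbn1 under 2. Nsg2, Il9r, Rhbdf1 and Mpg, which also rose (0.73 ± 0.17, 0.040), lie in 1 stretch, chr11:32000463-32232700. Their rises may therefore not be independent results, and a shared origin was not tested.

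**Figure D3:**
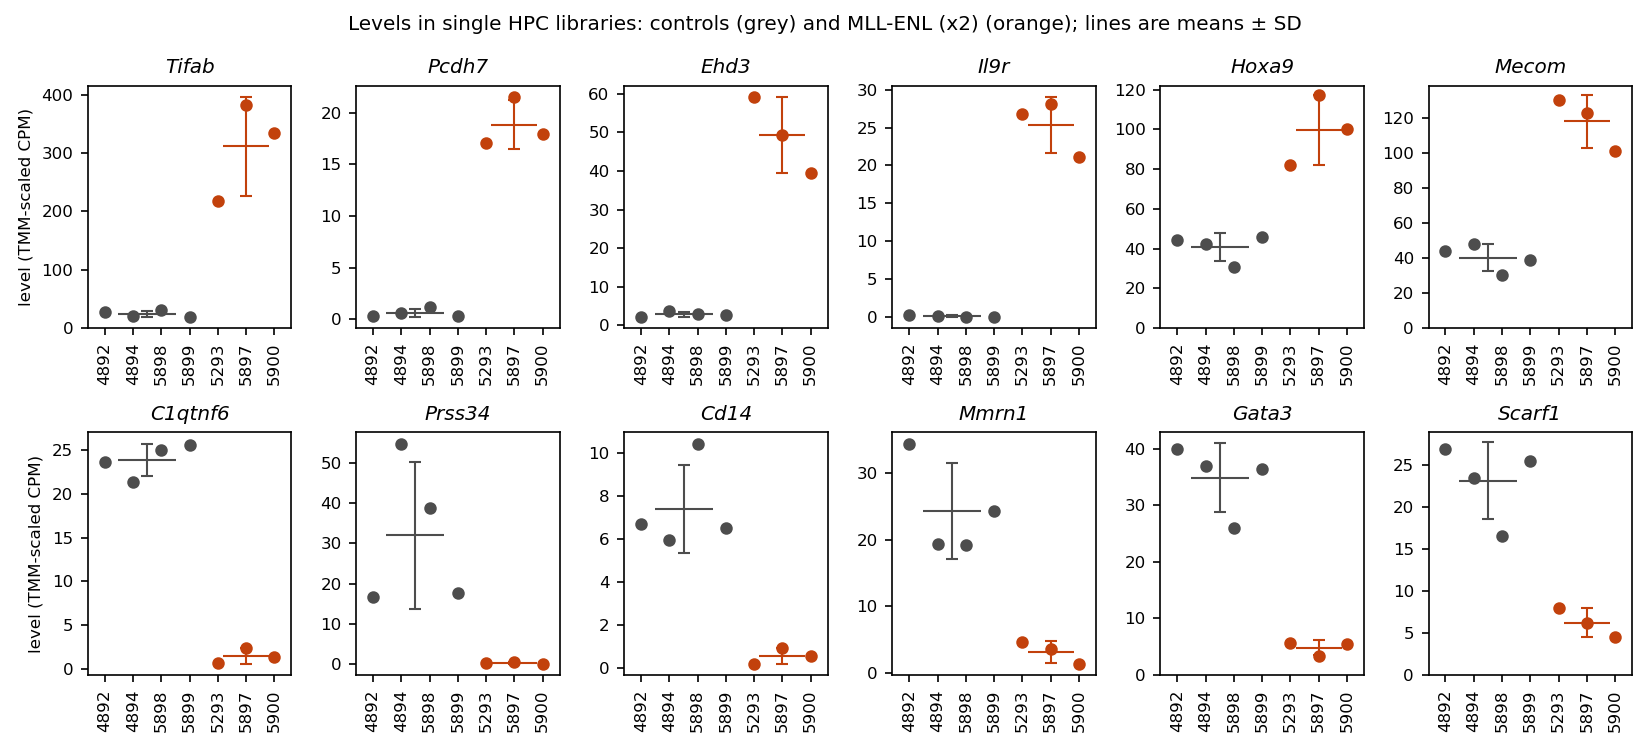
Level in each HPC library (y axis, TMM-scaled CPM; x axis, library number) for 6 raised and 6 lowered genes, controls in grey and MLL-ENL (x2) in orange, with mean ± SD. In all 12 panels the 2 groups do not overlap, which the naming rule itself required of all but Il9r, Hoxa9 and Mecom. Tifab lies at 218 CPM or more in MLL-ENL (x2) against 30.6 CPM or less in controls. C1qtnf6 lies at 2.38 CPM or less against 21.4 CPM or more.

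Genes of fetal and neonatal blood cells were the other group with several rises. LIN28B, an RNA-binding protein, keeps fetal progenitors in their fetal programme by blocking let-7 microRNAs, and HMGA2 and the IGF2BP proteins act downstream of it. Of 18 list members 9 were tested, all 9 had a positive log2 fold change (median 1.04), 4 were higher and 0 lower. The shared sign is little of a test, since genes at or near 0 counts in controls, such as Lin28b and H19, could hardly be negative. Lin28b had 1 count over the 4 control libraries and 130 over the 3 MLL-ENL (x2) libraries, at 2.08, 2.98 and 2.16 CPM, a ratio of 154 with a 95% counting interval from 27.2 to 6136 (adjusted p = 0.0027). Hmga2 stood at 16.8 to 20.1 against 35.1 to 38.7 CPM, 2 narrow and separate ranges (1.04 ± 0.17, 0.0021). Igf2bp2 went from 2.01 to 4.07 CPM up to 7.35 to 9.82 CPM (1.42 ± 0.25, 0.0044). H19, an imprinted fetal RNA, had 0 counts in all 4 controls and 13, 25 and 8 counts in the others, at least 18.2-fold higher against a floor of 3 counts over the control group (0.045). Igf2bp3 (2.11, adjusted p = 0.055) and Plag1 (0.95, 0.23) had positive values that missed the threshold. The H19 call was lost when any 1 of the 7 libraries was left out.

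Among factors of other lineages, Gfi1b rose, a repressor of erythroid and megakaryocyte progenitors, from 36.5 to 49.4 CPM in controls up to 97.0 to 132 CPM (1.51 ± 0.21, adjusted p = 0.00023). The list of 18 erythroid genes had 1 higher, the beta globin Hbb-bt, at 30.2, 43.6, 90.3 and 41.0 CPM against 127, 358 and 333 CPM (2.41 ± 0.43, 0.0039). Its near-identical neighbour Hbb-bs had 0.20 (adjusted p = 0.99) and the alpha globins Hba-a1 and Hba-a2 had -0.10 and -0.20. How the counting divided reads between the near-identical beta globins is not given, so both of their values are uncertain. Blvrb (-0.63, 0.085), Gata1 (-1.002, 0.35) and Car2 (-0.56, 0.44) did not pass. T and NK cell genes were split, with 2 of 16 higher and 1, Gata3, lower (median 0.27). Trbc2, a constant region of the T cell receptor beta chain, went from 3.05 to 8.04 CPM up to 11.2 to 36.9 CPM (2.09 ± 0.43, 0.016), and Tcf7, the factor TCF1, from 0.130 to 1.67 CPM up to 2.85 to 5.56 CPM (2.58 ± 0.53, 0.014). Cd3e and Ncr1 had too few reads to be tested. Cd3d was at 0 in 2 of 3 MLL-ENL (x2) libraries and at 0 to 1.02 CPM in controls. Cd3g went the other way, at 0 to 0.833 CPM in MLL-ENL (x2) against 0 to 0.389 CPM in controls. The NK cell marker Klrb1c was at 4.42 to 5.51 against 7.24 to 9.87 CPM and did not pass. The summed level of the list ran from 728 to 925 CPM against 662 to 946 CPM in controls. The call of Trbc2 was lost under 5 and that of Tcf7 under 4 of 12 alternatives.

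A few genes of basophils, mast cells and eosinophils fell far, while most genes of these lists did not pass. Prss34, a basophil and mast cell protease, stood at 16.7, 54.7, 38.8 and 17.7 CPM in controls and at 0.278, 0.463 and 0.162 CPM in MLL-ENL (x2) (-6.74 ± 0.77, adjusted p = 3.5e-05). Prg2, the major basic protein of eosinophil granules, had 39.3, 180.4, 174 and 109 CPM in controls against 3.98, 5.76 and 12.1 CPM (-4.11 ± 0.69, 0.0024). In both genes the highest MLL-ENL (x2) library lay below the lowest control. All 9 tested eosinophil genes had negative values (median -2.31), of which 1 passed, Prg2; Epx had 4.93 to 70.1 against 0.139 to 16.5 CPM (-2.31, 0.37). Of 13 mast cell and basophil genes 2 were lower and 0 higher, with a median of 0.04. The 2, Prss34 and Tpsb2, lie near each other on chromosome 17 (starts 25298394 and 25366305) and may not be independent results. Tpsb2, a mast cell tryptase, had 305 counts over the controls, from 0 to 10.5 CPM, and 2 over the others, a ratio of 129 with an interval from 35.3 to 1067 (0.048), a call lost under 8 of 12 alternatives. Mcpt8 (0.40), Cyp11a1 (0.40), Gata2 (0.35) and Slc18a2 (0.08), other genes of these cells, had an adjusted p of 0.54 to 0.98. Cma1 was at 0 in all 3 MLL-ENL (x2) libraries. The summed eosinophil list was at 7.59 to 32.5 CPM in MLL-ENL (x2) against 48.9 to 266 CPM in controls. In these bulk samples fewer cells of a type and less RNA per cell cannot be told apart, and the part of such cells in these falls was not tested. Hpgds, the prostaglandin D synthase of mast cells, fell from a mean of 7.27 to 2.23 CPM (-1.69 ± 0.38, 0.029), a call lost under 6 of 12 alternatives. With all 84 libraries in 1 fit, Prss34 (adjusted p = 0.11) and Prg2 (0.27) also lost theirs.

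A lineage transcription factor and several surface proteins fell as well. Gata3, a factor of T cells and of stem cell cycling, was at 40.1, 37.1, 26.02 and 36.5 CPM in controls and at 5.55, 3.31 and 5.504 CPM in MLL-ENL (x2) (-2.86 ± 0.42, adjusted p = 0.00052). In the stem and multipotent progenitor list 1 of 25 rose (Mecom) and 1 fell, and the median was 0.04. Hlf, a stem cell factor, had 229 to 301 CPM in controls and 386 to 472 CPM in the others without passing over all genes (0.65 ± 0.16, adjusted p = 0.059). Mmrn1, a platelet and endothelial adhesion protein, fell from 19.1 to 34.4 CPM down to 1.403 to 4.58 CPM (-2.92 ± 0.47, 0.0016), and in its list of 17 megakaryocyte genes 2 were lower, with a median of -0.21. Scarf1, a scavenger receptor (-1.90 ± 0.25, 0.00018), and Rftn2, a lipid raft protein (-1.76 ± 0.20, 3.4e-05), were lower in all 3 libraries. Ptger3, a prostaglandin E receptor, had -2.34 ± 0.57 (0.048), a call lost under 6 of 12 alternatives.

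C1qtnf6, a secreted relative of complement C1q, gave the cleanest fall. It was at 23.6, 21.4, 25.01 and 25.6 CPM in controls and at 0.648, 2.38 and 1.29 CPM in MLL-ENL (x2) (-4.08 ± 0.33, adjusted p = 2.8e-07). Cd14, the endotoxin co-receptor of monocytes, had 6.71, 5.97, 10.5 and 6.49 CPM against 0.185, 0.927 and 0.540 CPM (-3.81 ± 0.37, 4.8e-06). It was 1 of 2 changed genes among 21 monocyte and dendritic cell genes (median 0.06), the other being Ly86, the partner of the receptor RP105, which rose from 5.06 to 10.2 CPM up to 10.3 to 27.1 CPM (1.44 ± 0.32, 0.031, lost under 7 of 12 alternatives). Of 3 macrophage markers, Vcam1 was at 1.46 to 4.30 CPM in MLL-ENL (x2) and 2.01 to 18.9 CPM in controls, Adgre1 at 0.054 to 0.794 against 0.712 to 3.79 CPM and C1qa at 0 to 0.139 against 0.203 to 1.74 CPM, and their part in the fall of Cd14 was not tested. Klhl4, a kelch protein gene chosen after its values were seen, had 484 counts over the controls and 3 over MLL-ENL (x2), a ratio of 136 with an interval from 46.3 to 662 (5.9e-05). Mmp2 (-2.03 ± 0.45), Frmd4b (-1.97 ± 0.45), Epb41l5 (-1.93 ± 0.40), Arhgef28 (-2.15 ± 0.43) and Ces2g (-2.33 ± 0.39) completed the strongest falls, with adjusted p of 0.0021 to 0.036. Their calls were lost under 1 to 6 of 12 alternatives each.

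Mature neutrophil genes showed how much single controls can set a value. In the list of 17 granule genes 13 values were negative (median -2.48), yet 1 passed, the collagenase Mmp8, at 16.1, 14.0, 1.54 and 0.193 CPM in controls and 0.185, 0.596 and 0 CPM in the others (-5.00 ± 1.19, adjusted p = 0.042). Controls 4892 and 4894 held the high values, and without both of them Mmp8 had -1.80 ± 1.10 (adjusted p = 0.51). Of 4 serine protease and peroxidase genes of the early granules, 3 had positive values and none passed. Ctsg was at 39.6 to 58.3 against 77.6 to 99.8 CPM (0.81 ± 0.21, adjusted p = 0.081), Elane had 0.86 (0.26), Mpo 0.57 (0.22) and Prtn3 -0.27 (0.83). Without both controls 65 genes were higher and 46 lower, and 71 of the 142 calls were shared. All 142 genes kept the sign of their fold change. This is little of a test, since in 78 raised and 59 lowered genes the groups did not overlap to begin with. Tifab (3.66 ± 0.31), Hoxa9 (1.38 ± 0.24), C1qtnf6 (-4.17 ± 0.37), Prss34 (-6.56 ± 0.77) and Prg2 (-4.28 ± 0.70) still passed.

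Several further lists held no gene that passed the test. All 24 DNA replication genes had a negative value (median -0.23) and so had 21 of 22 mitosis genes (median -0.23), with 0 past the test in either list; Lig1 (-0.35, adjusted p = 0.22) and Kif23 (-0.51, 0.39) came closest. The groups did not overlap in Lig1 (211 to 249 against 270 to 323 CPM) and Kif23 (62.8 to 76.6 against 82.6 to 111 CPM). There were also 0 calls among 30 interferon genes (median -0.01), 10 MHC class II genes (-0.20), 21 lymphoid priming genes (0.11), 20 ribosome biogenesis genes (0.08), 22 genes of oxidative phosphorylation (-0.08), 17 p53 targets (0.18), 16 immediate early genes (0.20), 12 sorting antigens (0.05) and 3 tested hepatocyte genes (0.16). B cell genes had a median of 1.06 over 9 genes with 0 called. Library 5897 held 2775 CPM of the kappa chain Igkc against 104 and 754 CPM in 5293 and 5900 and 31.4 to 511 CPM in controls. The stroma and endothelium list had 1 of 11 higher, the collagen Col1a1, from 2 counts over the controls to 34 (ratio 20.2, interval 5.17 to 173, adjusted p = 0.038, lost under 9 of 11 alternatives).

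Col1a1 also stood in a list of 5 genes at places often used for tetracycline-controlled transgenes or picked from earlier results of these data, of which 3 rose. Gt(ROSA)26Sor, the transcript of the Rosa26 locus, went from 11.4, 8.11, 11.3 and 10.8 CPM to 23.0, 32.8 and 37.5 CPM (1.58 ± 0.18, adjusted p = 3.8e-05). Its neighbours Thumpd3 (0.21, 0.76) and Setd5 (0.35, 0.78) did not pass. Sva, a seminal vesicle secretory gene, had 0 counts in all controls and 1.94 to 2.52 CPM in every MLL-ENL (x2) library, at least 47.8-fold higher against a floor of 3 counts over the control group (9.7e-05). Sva (chr6:42038394-42042851) and the raised Trbc2 (chr6:41546730-41548352) lie in the same region. Whether their rises are independent was not tested.

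**Figure D4:**
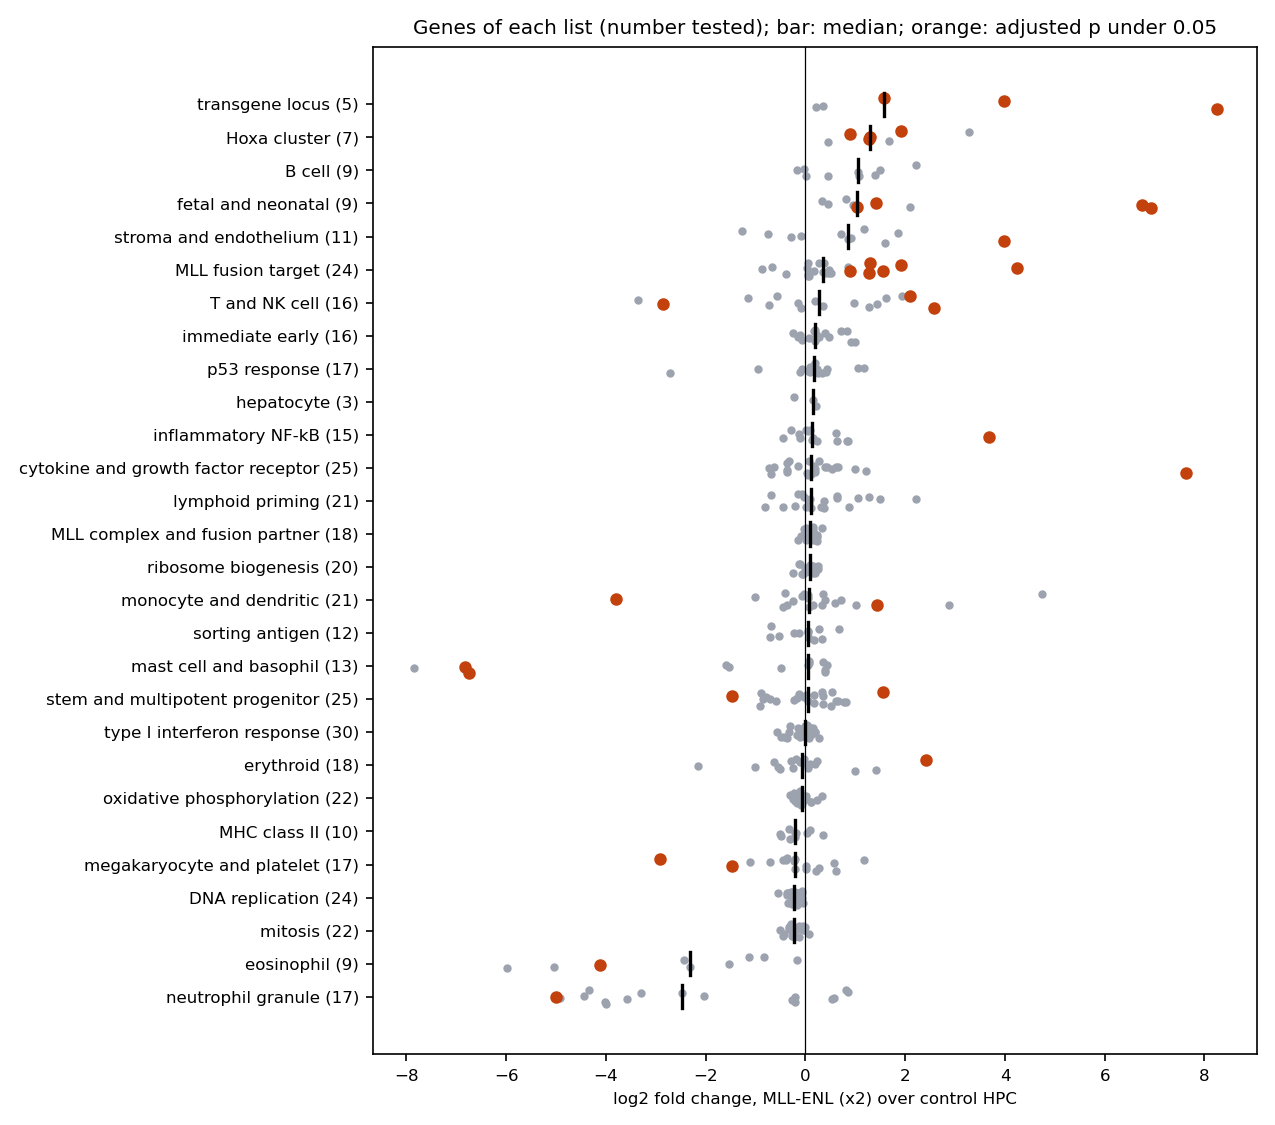
Log2 fold change in MLL-ENL (x2) over control HPC (x axis) of every tested gene of 28 lists (rows, with the number tested); black bars are medians and orange points passed an adjusted p of 0.05. Hoxa and fetal genes lie to the right of 0 throughout, eosinophil genes to the left, and most lists lie around 0. Genes at or near 0 counts in controls could hardly lie to the left.

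The same mice gave pGM and GMP, so effects could be compared between populations. In pGM 119 of 14260 genes passed (0.835%) and in GMP 128 (0.898%). No gene passed the test of a difference in effect between HPC and pGM without regard to the mouse (0 of 14260, 0%; 475 at an unadjusted p under 0.05; DESeq2 9). With the mouse as a block 6 passed (0.0421%), among them Tifab, whose rise was 3.67 in HPC and 1.77 ± 0.21 in pGM (difference 1.89 ± 0.27, adjusted p = 0.012; 0.052 without the block). Gfi1b (difference 1.33 ± 0.20, 0.017) and Prss34 (-4.75 ± 0.78, 0.028) also passed with the block. HPC against GMP gave 14 genes (0.0982%), 11 with a more positive and 3 with a more negative effect in HPC, and 45 (0.316%) with the block. Among the 14 without the block Tifab had the smallest p. Its level was 503 ± 112 CPM in control GMP (SD, n = 4) and 711 ± 174 CPM in MLL-ENL (x2) GMP (n = 3), an effect of 0.50 ± 0.21 (difference 3.17 ± 0.31, adjusted p = 1.9e-05). Controls thus gained Tifab from 24.4 CPM in HPC through 153 CPM in pGM to 503 CPM in GMP, and MLL-ENL (x2) HPC, at 311 CPM, lay between control pGM and control GMP.

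Gfi1b went in opposite directions, up by 1.51 in HPC and down to 5.32 ± 1.03 from 13.6 ± 2.94 CPM in GMP (difference 2.85 ± 0.31, adjusted p = 3.8e-05). Pcdh7 rose in HPC and not detectably in GMP (0.42 ± 0.49; difference 4.59 ± 0.71, 0.0039), and Il9r, at 25.3 CPM in HPC and 7.30 ± 2.72 CPM in pGM, had 0 CPM in all 3 MLL-ENL (x2) GMP libraries (0.0039). Hlf had 0.65 in HPC and -0.87 ± 0.18 in GMP (difference 1.52 ± 0.24, 0.0059). Cd55, a complement inhibitor, had 0.68 ± 0.31 in HPC and -2.48 ± 0.37 in GMP (difference 3.16 ± 0.48, 0.0039). The cyclophilin Ppic fell in both, less in HPC, by 1.15 ± 0.17 in HPC against 3.34 ± 0.19 in GMP (3.8e-05). Rftn2 (difference -1.52 ± 0.28, 0.032) and G0s2, an inhibitor of lipolysis (-5.61 ± 0.86, 0.0039), fell in HPC with -0.24 ± 0.20 and 0.32 ± 0.39 in GMP. Hoxa9 and Hoxa10 had 1.07 ± 0.19 and 2.58 ± 0.26 in GMP, and neither differed in effect from HPC past the threshold (adjusted p = 1 and 0.23). Ehd3, Skida1, Mecom and C1qtnf6 passed in all 3 populations with the same sign.

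Mice labelled MLL-ENL without x2 were profiled at the same age against other controls, and neonates (P0, from liver) likewise. The library labelled 73 HPC of the 10 week group had an HPC minus pGM marker score of -1.78, against 2.43 to 2.95 in the others of its group and 2.61 to 3.18 in the 7 HPC libraries here, and the library labelled 73 pGM had 2.80 against -2.43 to -1.90, so each went against its label. HPC of the 10 week mice had 26 of 14899 genes called (0.175%), of which 18 were higher and 8 lower. Of the 18, 10 were also higher in MLL-ENL (x2) HPC (55.6% of that list, 12.3% of the 81), among them Tifab, Il9r, Pcdh7, Ehd3, Skida1 and Sva. Of the 8 lower genes 6 were shared (75.0% and 9.84%): C1qtnf6, Cd14, Epb41l5, Klhl4, Mmrn1 and Rftn2. No call went the other way. Without the libraries labelled 73, an alternative added after seeing the data, 10 of 20 higher (50%) and 4 of 6 lower genes (66.7%) were shared. Tested directly, 0 of 13601 genes differed in effect between MLL-ENL (x2) and MLL-ENL HPC (0%; 330 at an unadjusted p under 0.05; DESeq2 4), and 0 of 13562 without the library labelled 73 HPC (539 at an unadjusted p under 0.05). Side by side, Pcdh7 had 5.01 ± 0.51 and 2.49 ± 0.38, Ehd3 4.12 ± 0.37 and 2.35 ± 0.50, and Hoxa9 1.29 ± 0.18 and 0.37 ± 0.22. Skida1 (4.24 and 4.52), Cd14 (-3.81 and -3.75) and Mmrn1 (-2.92 and -2.96) had nearly equal estimates. Hoxa7, Hoxa10, Hoxa5 and Mecom, all raised here, had 0.36 to 1.04 in MLL-ENL HPC with adjusted p of 0.44 to 1. Without both libraries labelled 73 the MLL-ENL effects were 2.77 ± 0.36 for Pcdh7, 2.20 ± 0.32 for Tifab, 0.51 ± 0.20 for Hoxa9, 0.89 ± 0.25 for Hoxa10 and 4.81 ± 0.65 for Skida1. Cd14 had -3.84 ± 0.89 there and lost its call (adjusted p = 0.055), and Hoxa5, Hoxa7, Hoxa9, Hoxa10 and Mecom did not pass either (0.098 to 0.72).

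Neonatal HPC had 1133 of 14899 genes called (7.6%), 361 higher and 772 lower. Of the 81 genes raised in MLL-ENL (x2) HPC 31 were also raised at P0 (38.3% of the 81, 8.59% of the 361), including Hoxa5, Hoxa7, Hoxa9, Hoxa10, Mecom, Skida1, Lin28b, Hmga2 and Igf2bp2. Of the 61 lowered genes 21 were shared (34.4% and 2.72%), with C1qtnf6, Gata3, Cd14 and Mmrn1 among them. Another 5 of the raised genes were lower at P0: Clec12a, Ly86, Nrp1, Serpine2 and Tcf7. Meis1 passed at P0 (1.11 ± 0.22, adjusted p = 0.0011) and had 0.18 ± 0.22 here. Tifab, the leading gene of adult HPC, had -0.83 ± 0.37 at P0 (adjusted p = 0.17), where neonatal controls already held 197 ± 117 CPM (SD, n = 4). The difference in effect between P0 and 10 week MLL-ENL (x2) HPC was not tested.

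**Figure D5:**
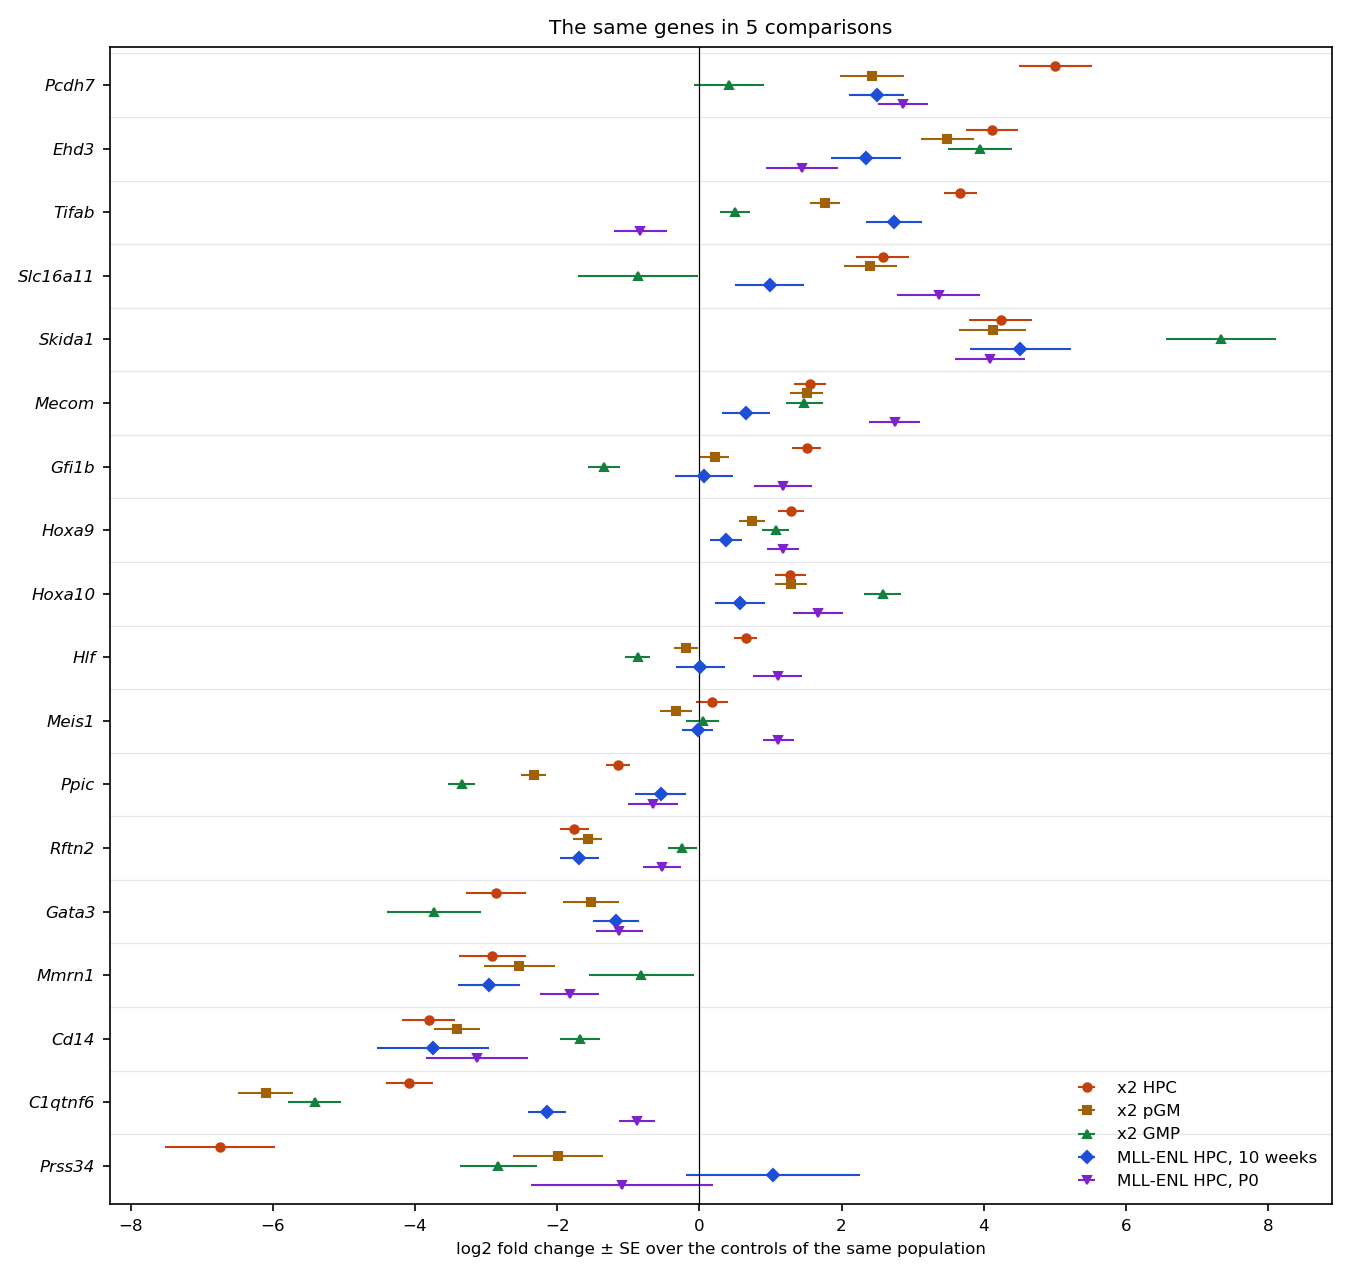
Log2 fold change with SE (x axis) of 18 genes (rows) in 5 comparisons, each against controls of the same population: MLL-ENL (x2) HPC, pGM and GMP, and MLL-ENL HPC at 10 weeks and P0. Skida1 lies above 4 in all 5, Gfi1b and Hlf lie on opposite sides of 0 in HPC and GMP of MLL-ENL (x2) mice, and Tifab falls from 3.67 in HPC to 0.50 in GMP.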

How the data were processed

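RNA of sorted mouse bone marrow progenitors was sequenced; the labels name the Qiagen RNeasy micro plus kit for extraction and Clontech SMARTer for amplification. The authors deposited raw read counts per Ensembl gene. Per the submitters' processing notes the tools were STAR 3.0.4, Subread and featureCounts 1.4.5; for the genome build, gene annotation and strandedness, nothing was given in the sources used here. Symbols and positions came from GENCODE vM21 (GRCm38), promoters from RefSeq.

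All 21 libraries from MLL-ENL (x2) mice and their controls (7 each of HPC, pGM and GMP) were fitted together in edgeR 4.0.16 (R 4.3.3): TMM scaling, filterByExpr, 1 mean per group, quasi-likelihood F test, Benjamini-Hochberg FDR 0.05. Libraries of 1 mouse count as independent there; the 7 HPC libraries alone are an alternative. Where the labels do not state separate animals, p-values measure only the spread between libraries. Other HPC comparisons came from a fit of 47 libraries, and the contrast of both 10 week sets from a fit of 15. Same-numbered libraries deviated together (correlation 0.398 to 0.567 for HPC with pGM and 0.212 to 0.391 with GMP, each best with its own number), so numbers were taken to pair populations, and blocked values stand beside the unblocked. No 2 libraries of a group were duplicates (chi-square per degree of freedom 10.3 to 75.6). The transgene was tested by a 2-sided exact permutation of mean CPM. Intervals are exact, at 95%, and they and floors of 3 counts cover counting error only.

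Alternatives were RLE scaling, no filter, DESeq2 1.42.0, the 7 libraries alone, all 84 libraries, FDR 0.10, the block, and each HPC library left out. DESeq2 for differences in effect, the fits without controls 4892 and 4894 and without the libraries labelled 73 were added after seeing the data. Named genes were Kmt2a, Mllt1, Meis1, the tested Hoxa genes, the 15 largest rises and 15 largest falls past FDR 0.05 whose mean log2 CPM (edgeR, prior count 2) reached 1, with no overlap of groups and no predicted gene model; up to 4 called members of each list, or 2 where none passed; and up to 6 genes of each difference in effect. List members that missed the test are given as further values. Comparison, lists and rule were chosen with earlier results of these data known. The fit was tested on simulated data. Tables and plots were made in Python 3.11.15 (scipy 1.17.1 for the permutation test, matplotlib 3.10.9 for drawing). Some genes that the rule named are not reported here.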

Additional observations from a re-analysis of the deposited data

Results flagged for a closer look

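For 9 named genes the effect in HPC differed from that in GMP of the same mice in edgeR's test of the difference: Il9r by 12.9 on the log2 scale, Pcdh7 by 4.59, Tifab by 3.17, Cd55 by 3.16, Gfi1b by 2.85, Ppic by 2.19 and Hlf by 1.52 more positive in HPC, and G0s2 by -5.61 and Rftn2 by -1.52 more negative. The value of Il9r is no bound, since all 3 MLL-ENL (x2) GMP libraries were at 0 and its effect in GMP was thus set at the floor. Gfi1b, Ppic, Cd55, G0s2 and Hlf were named only because they passed this same test, which 14 of 14260 genes did (0.0982%). With the mouse as a block all 9 passed at adjusted p from 2.5e-06 (Gfi1b) to 0.027 (Rftn2). That fit used the same 21 libraries and is no independent result.

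In 5 of 84 genes examined, 1 of the 4 control HPC libraries lay far from the other 3. This share is near the 1 in 20 that chance gives. The genes were Rhbdf1 in 5899 at 2.57 CPM, Etv1 in 4894 at 0.584 CPM, Cd14 in 5898 at 10.5 CPM, Lin28b in 4892 at 0.0509 CPM and Gfi1b in 5899 at 49.4 CPM. For Lin28b this was 1 count against 0 in each other control. None of these values lay in the range of the MLL-ENL (x2) libraries, which the naming rule itself required for Rhbdf1, Etv1 and Cd14.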

How the results depend on the processing

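Of 88 named genes tested, 52 were called and 28 of them stayed called under all 11 or 12 alternatives that gave a value, among them Tifab, Il9r, Pcdh7, Ehd3, Skida1, Hoxa5, Hoxa7, Hoxa9, Hoxa10, Mecom, Gata3, Mmrn1, Cd14 and C1qtnf6. No call changed sign, which is little of a test where the groups do not overlap. RLE scaling kept all 88 on their side of the threshold. The counts of higher and lower genes, 81 and 61, went to 124 and 87 at FDR 0.10, 151 and 129 with DESeq2, and 51 and 23 in the 7 HPC libraries alone, where 62 of the 142 calls were shared. Leaving out each library gave 48 to 93 higher and 26 to 74 lower genes, with 48 and 26 without 5897 and 53 and 32 without 5900. Differences in effect between HPC and pGM numbered 0, but 2 without the filter, 9 with DESeq2, 6 with the replicate block and 0 to 1 with a library left out. Those between HPC and GMP numbered 14, but 33 without the filter, 57 with DESeq2, 45 with the block (all 14 among them) and 9 to 13 with a library left out. Those between MLL-ENL (x2) and MLL-ENL HPC numbered 0, but 4 with DESeq2 and 0 to 1 with a library left out. The cause of these shifts was not tested. No pairing exists between genotypes within HPC. With 3 against 4 libraries small changes of low genes were not detectable.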
